A study of Homo sapiens with 3 samples.

Results

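Peaks of RNA binding in long non-coding RNA genes were described in HCT116, an established cell line from a human colorectal carcinoma. The members were peaks whose summit had a gene of type lncRNA as the shortest RefSeq gene of GRCh38 that held it. MALAT1, NEAT1, GAS5 and the SNHG genes were left out, and so were flat peaks, which were exactly 30 bases wide with the summit at an offset of 15. The other peaks are called shaped peaks. In all, 6289 of 408413 peaks were members. They were 3100 of 54047 shaped peaks among the 154000 peaks of cells carrying RPL22-HaloTag, and 3189 of 56187 shaped peaks among the 254413 peaks of cells carrying RPL22L1-HaloTag. The members lay in 2124 of 18303 lncRNA genes.

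The series held 3 samples, all of HCT116 cells, with 1 library each and no treatment named in the labels: HaloTag expressed alone, RPL22-HaloTag and RPL22L1-HaloTag. GoldCLIP couples the HaloTag of a fusion protein covalently to beads and sequences the RNA crosslinked to it. The peak lists of both fusion proteins are called the RPL22 list and the RPL22L1 list, and the library with HaloTag alone was not analysed here, so no background from it stands beside any value. How the fusion proteins were expressed and whether the cells were clonal is not given in the sources used here.

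RPL22 belongs to the large subunit of the ribosome and binds RNA hairpins, and RPL22L1 is its paralog. A long non-coding RNA is a transcript without a long reading frame. Some stay in the nucleus near chromatin, some are cytoplasmic and meet ribosomes, and some are precursors from which the Drosha enzyme cuts microRNA hairpins. Transfer RNA genes also lie inside or beside some of these genes and are transcribed on their own by RNA polymerase III.

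Selected sequences at which members touched an annotated small RNA are shown first, because the positions of these peaks can be set base by base against a known RNA structure. By the rule, a summit inside a microRNA or tRNA gene was not a member, so each of these summits lay outside the small RNA gene while the peak could reach into it. Of the microRNA genes within 100 bases of a member summit, RefSeq hairpins were matched for 9 of 10 peaks from RPL22 and for 12 of 12 from RPL22L1. Also covered but not printed were MIR24-2 and MIR374A in the RPL22 list and MIR181A1 and MIR365A in the RPL22L1 list. At MIR374A the peak covered 61 of the 72 bases with its summit on the 3′ side, and at the others the summit lay on the 5′ side. The hairpins below are RefSeq sequences of GRCh38.p14 written from the 5′ end, and the capitals mark the bases covered by the peak.
MIR20A, RPL22L1 list: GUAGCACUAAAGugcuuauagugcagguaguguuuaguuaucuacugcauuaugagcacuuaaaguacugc
MIR17, RPL22L1 list: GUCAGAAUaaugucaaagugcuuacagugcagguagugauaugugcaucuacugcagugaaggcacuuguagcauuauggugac
MIR16-1, RPL22L1 list: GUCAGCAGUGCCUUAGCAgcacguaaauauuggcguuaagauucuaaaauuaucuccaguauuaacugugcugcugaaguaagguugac
MIR31, RPL22 list: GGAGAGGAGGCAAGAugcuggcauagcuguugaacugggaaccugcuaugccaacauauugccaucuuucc
MIR31, RPL22L1 list: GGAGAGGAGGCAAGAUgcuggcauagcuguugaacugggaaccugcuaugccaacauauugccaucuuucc
MIR29B2, RPL22L1 list: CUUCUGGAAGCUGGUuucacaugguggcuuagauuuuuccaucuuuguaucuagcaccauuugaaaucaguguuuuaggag
MIR125B1, RPL22L1 list: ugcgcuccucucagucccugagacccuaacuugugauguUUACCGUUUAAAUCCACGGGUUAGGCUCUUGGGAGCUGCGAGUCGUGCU
MIR100, RPL22L1 list: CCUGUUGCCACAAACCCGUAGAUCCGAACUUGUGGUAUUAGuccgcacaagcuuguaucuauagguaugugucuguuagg
MIR23A, RPL22 list: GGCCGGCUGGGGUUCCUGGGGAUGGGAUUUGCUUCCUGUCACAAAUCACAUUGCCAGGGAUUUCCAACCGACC

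In the first 6 of these lines the peak covered only the start of the 5′ arm, and the summit stood 1 to 17 bases before the first base of the hairpin. In MIR17HG, the precursor of an oncogenic cluster of microRNAs, the RPL22L1 list held 4 members and the RPL22 list held 0. The highest of the 4, at chr13:91351044-91351076 on GRCh38, had a score of 3129, its summit lay 11 bases before MIR20A, and it covered the first 12 of the 71 bases of the hairpin. The next, at chr13:91350575-91350612, had a score of 2146, lay 12 bases before MIR17 and covered 8 bases of that hairpin. Scores are the authors' own whole numbers for each peak, of unstated scale, and rank peaks only within a list; the members' median score was 72 for RPL22 and 203 for RPL22L1. The MIR20A peak covered 5 of the 23 bases of the mature hsa-miR-20a-5p, and the MIR17 peak covered 0 of the 23 bases of hsa-miR-17-5p. These 5p products share a seed, bases 2 to 8 from the 5′ end, and the 3p products do not. The seed is in capitals below because it fixes which messages a microRNA recognises, and these capitals do not mark bases covered by a peak.
hsa-miR-17-5p: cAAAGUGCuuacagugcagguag
hsa-miR-20a-5p: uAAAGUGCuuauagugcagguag

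MIR31 was the 1 microRNA gene with a member of each list within 100 bases. Its host MIR31HG held a peak at chr9:21512171-21512210 with a score of 719 from RPL22, and one at chr9:21512170-21512216 with a score of 1185 from RPL22L1. The summits lay 16 and 17 bases before the hairpin and the peaks covered its first 15 and 16 bases, so the peaks of both libraries had nearly the same place. They were also the highest-scoring members of MIR31HG in each list.

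The other printed hairpins were covered by a member of a single list. DLEU2, the host of MIR15A and MIR16-1, held an RPL22L1 peak of score 1303 with its summit 5 bases before MIR16-1. MIR29B2CHG, the host of MIR29B2, held one of score 758 with its summit 1 base before the hairpin. In MIR100HG, the host of MIR100, MIRLET7A2 and MIR125B1, an RPL22L1 peak of score 831 lay on the other side, 19 bases past the end of MIR125B1, and covered 49 of the 88 bases of the hairpin including the whole of its 3p product. A second MIR100HG peak, of score 68, covered 41 of the 80 bases of MIR100 from its 5′ end. In the RPL22 list, a peak of 158 bases and score 330 in MIR23AHG covered all 73 bases of MIR23A, while RPL22L1 had 0 members in that gene, although a peak of its list that was no member overlapped this one. Together, 8 of the 12 RPL22L1 summits near a microRNA lay on the 5′ side of the hairpin and 4 on the 3′ side, and 9 of those peaks covered at least 1 base of it. In the RPL22 list 4 of 9 lay on the 5′ side and 4 of 9 covered a base of the hairpin. These counts are small and have no replicate.

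The strongest members of both lists lay beside tRNA genes or at single sites in genes of little-known function. Within 100 bases of a tRNA gene lay 13 RPL22 and 17 RPL22L1 members, with a median distance from summit to gene of 2 and 5 bases. Of these peaks 11 and 16 reached into the tRNA gene. They made up 8 of the 20 highest-scoring members for RPL22 and 7 of 20 for RPL22L1. All small RNA genes together had 24 members of the RPL22 list (0.774%, interval 0.497 to 1.15%) and 32 of the RPL22L1 list (1.003%, 0.687 to 1.41%) within 100 bases. The tRNA-linked sites were thus few among the members but high in score. Summits inside a tRNA gene were left out by the rule, which lowers this number. The same share over all shaped peaks was not computed, so it does not set lncRNA genes apart. Intervals here and below are exact Clopper-Pearson 95% intervals that cover counting error only, since peaks are not replicates.

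**Figure D1:**
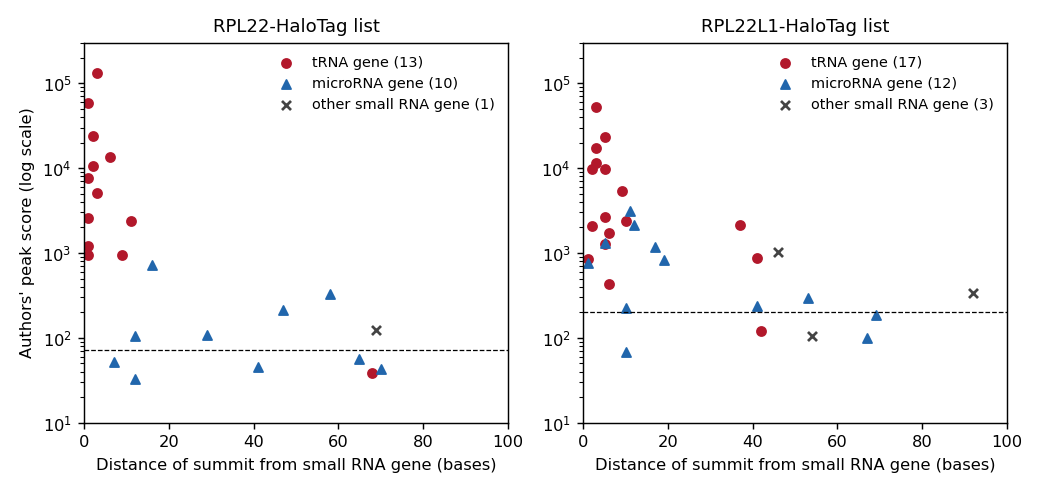
Authors' score of each member (log scale) against the distance in bases from its summit to the nearest small RNA gene, for members within 100 bases, with the median score of all members as a dashed line. In both lists most tRNA-linked peaks stood far above the dashed line at 72 and 203, and microRNA-linked peaks lay nearer to it.

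The member with the highest score of the RPL22 list, 130358, lay in LINC01962 at chr5:181191671-181191701. The RPL22L1 list had its second-highest member there, with a score of 52674 at chr5:181191670-181191701, and both summits fell on the same base, 3 bases outside the threonine tRNA gene TRT-TGT6-1. The site also lay in the promoter window of TRIM7-AS2, 206 bases before its annotated start, from which the RPL22 peak is printed on the plus strand with the 15 bases inside the tRNA gene in capitals. LINC01962 itself lies on the minus strand, so the printed bases are the reverse complement of its RNA. The strand of the tRNA gene was not used in the printing.
LINC01962, RPL22 list: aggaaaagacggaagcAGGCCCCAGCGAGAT
In LOC107986583 both lists held a peak at chr6:26521241-26521307, with scores of 57922 and 23004, of rank 3 among the members of either list and next to the leucine tRNA gene TRL-CAG1-7. The same held beside serine tRNA genes in B4GAT1-DT, next to TRS-GCT3-1, with scores of 7686 and 11544, and in CFAP418-AS1, next to TRS-AGA2-5, with scores of 23587 and 9861. A methionine tRNA gene, TRM-CAT6-1, lay 2 and 3 bases from the summits in LOC124903747, a gene within FBXO31, which scored 10716 and 17305.

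Other high members stood far from any annotated small RNA gene. TPTE2-AS1 held a peak on exactly the same bases in both lists, chr13:19587489-19587518, with a score of 116439 (second among the RPL22 members) and of 657813 (first among the RPL22L1 members). EPCAM-DT, transcribed divergently from the epithelial adhesion gene EPCAM, scored 18359 at chr2:47280757-47280793 and 17814 at chr2:47280758-47280793. LY86-AS1 had the same bases in both lists, chr6:6377590-6377619, with scores of 12280 and 9047, and LINC02533 had chr6:4493943-4493972 with scores of 4281 and 17679. Each of these 4 sites was thus shared to within 1 base.

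A few high peaks had no partner. NKX2-1-AS1 scored 23599 at chr14:36521182-36521213 in the RPL22 list, where no RPL22L1 peak overlapped it. CARINH scored 19740 at chr5:132468216-132468257 in the RPL22L1 list, where no RPL22 peak overlapped it. Among the 20 highest members, 16 in each list overlapped a peak of the other list. The share for equally high peaks in other gene types was not computed. At the lower limit of the top 5% of scores, 76.3% of RPL22 and 59.6% of RPL22L1 shaped peaks in protein-coding genes overlapped.

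Over all members, overlap was less frequent than in protein-coding genes. Of the RPL22 members 984 of 3100 (31.7%, 30.1 to 33.4%) shared at least 1 base with an RPL22L1 peak, where 39.2% of all shaped RPL22 peaks did. Of the RPL22L1 members 636 of 3189 (19.9%, 18.6 to 21.4%) overlapped an RPL22 peak, against 26.0% of all shaped RPL22L1 peaks. In protein-coding genes the shares were 39.9% (39.5 to 40.4%) and 26.5% (26.1 to 26.9%), above the intervals of the members. Outside genes they were 30.7% (28.8 to 32.7%) and 20.6% (18.98 to 22.2%), within which the shares of the members fell. Pseudogenes gave 34.8% and 28.1%.

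The gap to protein-coding genes was seen in the lower 4 of 5 score bands and not in the highest. In the lowest band 20.7% of RPL22 members and 27.0% of RPL22 peaks in protein-coding genes overlapped, and in the band from the 75th to the 95th percentile 48.6% and 56.3%. In the top 5% of scores the shares were 75.7% (67.6 to 82.7%) and 76.3% (74.3 to 78.1%). The RPL22L1 list had 8.29% against 11.8% in the lowest band and 59.6% (51.2 to 67.6%) against 59.6% (57.4 to 61.8%) in the top 5%. The share of overlap rose with score from band to band among the members of both lists.

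**Figure D2:**
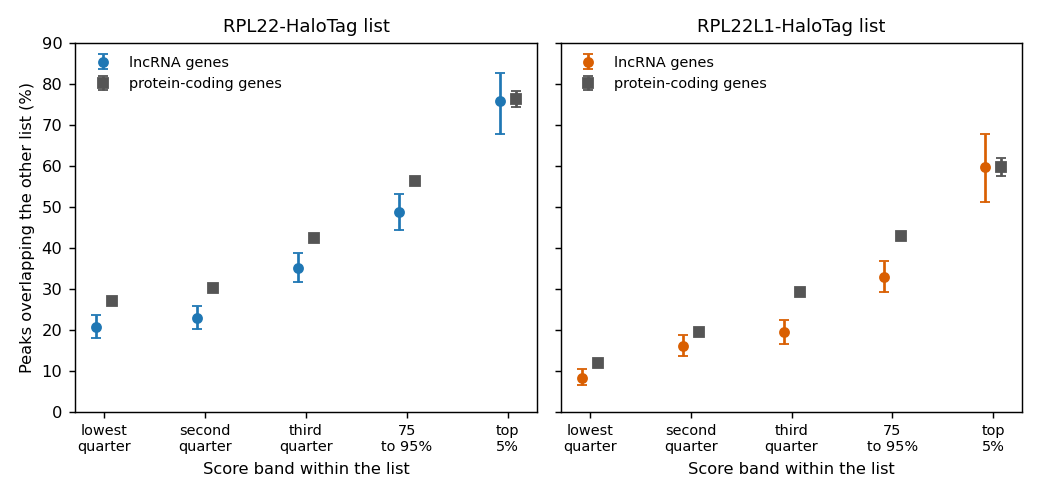
Percent of shaped peaks that share at least 1 base with a peak of the other list, by score band within the list, for members (circles) and peaks in protein-coding genes (squares). Bars are exact 95% intervals of counting error; the members lie lower in the first 4 bands, and both kinds reach about the same share in the top 5%.

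Where members overlapped each other, the summits were close. There were 578 overlapping pairs of members, 30 of them on the same bases, with a median summit distance of 9 bases. The summits of 226 pairs (39.1%) lay within 5 bases of each other. The overlapping partner was itself a shaped peak for 581 of 984 RPL22 members (59.0%) and for 580 of 636 RPL22L1 members (91.2%).

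Most member summits did not lie in a lncRNA gene alone. The peak files give no strand, so RNA of a protein-coding gene across the same bases cannot be told apart from the lncRNA. Of the RPL22 members 1844 (59.5%, 57.7 to 61.2%) and of the RPL22L1 members 1625 (51.0%, 49.2 to 52.7%) had a summit that also lay in a protein-coding gene. These nested members overlapped the other list in 33.3% and 23.8% of cases, and members in no protein-coding gene in 29.5% (26.9 to 32.1%) and 16.0% (14.2 to 17.9%). A higher share of the members in no protein-coding gene ranked among the 1000 highest peaks of the whole list. These were 45 of 1256 (3.58%, 2.63 to 4.76%) for RPL22 and 46 of 1564 (2.94%, 2.16 to 3.90%) for RPL22L1, beside 20 of 1844 (1.08%, 0.664 to 1.67%) and 17 of 1625 (1.05%, 0.611 to 1.67%) nested members. The same share was 0.9504% and 0.858% of shaped peaks in protein-coding genes, 9.06% and 6.14% in pseudogenes and 8.92% and 8.33% outside genes.

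Members were narrow and differed in width between the lists. The median width was 30 bases in the RPL22 list, also the narrowest width possible, and 40 bases in the RPL22L1 list, beside 33 and 45 bases for shaped peaks in protein-coding genes. Peaks of 100 bases or more were 2.29% (1.79 to 2.88%) and 4.11% (3.45 to 4.86%) of the members and 3.77% and 6.44% of the peaks in protein-coding genes. The edge of the rule on flat peaks can be read from peaks of 30 bases in lncRNA genes. With the summit at an offset of 14 there were 128 members in the RPL22 list, with a median score of 58, and at an offset of 16 there were 95, also at 58. The excluded offset of 15 held 10114 peaks with a median score of 21. In the RPL22L1 list the numbers were 65, 47 and 17277, with medians of 116, 127 and 115.

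The genes that held members were partly shared. RPL22 members lay in 1576 lncRNA genes and RPL22L1 members in 1300, and 752 genes had both, which was 47.7% of the former and 57.8% of the latter. The same shares over genes of all types were not computed, so whether lncRNA genes differ in this is not known. A single member over both lists was held by 1095 genes (51.6%), which therefore could not have both. Genes named LOC, which have no approved symbol, held 1506 and 1450 members, antisense genes 909 and 863, LINC genes 237 and 255, and divergent transcripts 171 and 167. MicroRNA host genes, with symbols of the form MIR..HG, stood apart. They held 65 RPL22 members in 23 genes (2.10%, 1.62 to 2.66%) and 217 RPL22L1 members in 19 genes (6.80%, 5.95 to 7.73%), of which 29.2% and 5.53% overlapped the other list. Without MIR100HG and MIR31HG the shares were 1.43% and 2.04%, so these genes carried most of the difference.

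Peak numbers per gene were compared for the 333 lncRNA genes with at least 5 members over both lists. The lists held close to equal numbers of shaped peaks, and the ratio was taken as log2 of the RPL22L1 number plus 1 over the RPL22 number plus 1. Genes above a ratio of 1 numbered 70 (21.0%, 16.8 to 25.8%), beside 13.1% of all 6444 genes that reached 5 shaped peaks, and genes below -1 numbered 41 (12.3%, 8.98 to 16.3%), beside 15.3%. In protein-coding genes 12.7% (11.8 to 13.5%) lay above 1 and 15.5% (14.6 to 16.4%) below -1. The median ratio was 0.19 in lncRNA genes and 0.00 in protein-coding genes. The excess towards RPL22L1 was seen in the 98 genes with no member inside a protein-coding gene, of which 26 (26.5%, 18.1 to 36.4%) lay above 1 and 10 (10.2%) below -1, and in the other 235 the numbers were 44 (18.7%, 13.9 to 24.3%) and 31 (13.2%). With flat peaks kept, 29.3% of 1698 lncRNA genes and 28.9% of 12747 genes of all types lay above 1, so the excess over all genes was not seen there. With 1 library per protein and no read numbers, RNA level, depth and binding cannot be told apart in any of these ratios.

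**Figure D3:**
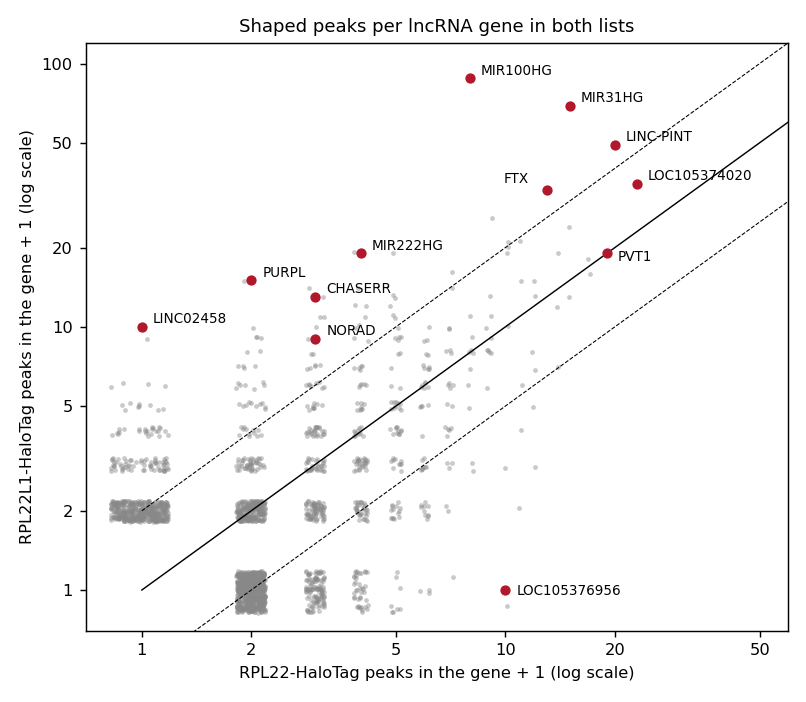
Number of members plus 1 in each of the 2124 lncRNA genes, RPL22 list against RPL22L1 list (log scales, points shifted slightly so that equal values can be seen); the solid line is equality and the dashed lines a log2 ratio of 1 and -1. Named genes are drawn in red, with MIR100HG and MIR31HG far above the upper dashed line and LOC105376956 at the lower right.

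The 8 genes with the most members held 118 RPL22 members (3.81%) and 342 RPL22L1 members (10.7%). MIR100HG, on the minus strand at chr11:122028329-122422871, held 7 RPL22 members and 87 RPL22L1 members, a log2 ratio of 3.46. Its RPL22 scores ran from 33 to 73, and its RPL22L1 scores from 16 through a median of 156 to 1531. The RPL22L1 summits lay 219.9 to 339.2 kb from the 5′ end of a gene of 394543 bases, with a median gap of 713 bases between neighbours, and none lay nearer to that end. The 4 RPL22L1 summits within 1000 bases of MIR100 and the 3 near MIR125B1 were part of this run and not its only part. Of the 7 RPL22 members 3 overlapped an RPL22L1 peak, flat peaks included. One RPL22L1 member, at chr11:122101048-122101096 with a score of 170, overlapped a RPL22 peak, at chr11:122101051-122101080 with a score of 73. It lay 226 bases before an annotated start of MIR100HG and is printed on the minus strand with the bases shared by both peaks in capitals.
MIR100HG, RPL22L1 list: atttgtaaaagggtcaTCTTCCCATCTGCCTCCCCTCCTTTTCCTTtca

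MIR31HG, on the minus strand at chr9:21454268-21559798, held 14 RPL22 and 68 RPL22L1 members, a log2 ratio of 2.20. Of these, 8 RPL22 members and 7 RPL22L1 members overlapped the other list. RPL22 scores ran from 14 through a median of 65.5 to 719, and RPL22L1 scores from 19 through 157 to 1185. The RPL22L1 summits spread over 60.01 kb from near the 5′ end, with a median gap of 435 bases, and the RPL22 summits over 49.9 kb with a median gap of 2370 bases. MIR222HG, the host of MIR221 and MIR222, held 3 and 18 members, a log2 ratio of 2.25, of which 7 RPL22L1 summits lay within 1000 bases of MIR221.

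The other genes with many members had smaller ratios. LINC-PINT, a transcript induced by p53, held 19 and 48 members, a log2 ratio of 1.29, of which 5 and 2 overlapped the other list. The gene LOC105374020 held 22 and 34, a ratio of 0.61, and shared more of them, 12 and 10. FTX, of the X-inactivation centre, held 12 and 32, a ratio of 1.34, of which 5 and 2 overlapped the other list. The median summit lay 29.7 kb from the 5′ end for RPL22 and 63.3 kb for RPL22L1. Within 1000 bases of MIR374A, near the 5′ end, lay 2 RPL22 members and 0 RPL22L1 members, although an RPL22L1 peak that was no member overlapped the RPL22 peak at MIR374A. Within 1000 bases of MIR374B lay 0 RPL22 members and 3 RPL22L1 members. LOC105369844 had the same numbers as FTX, 12 and 32. ZFPM2-AS1 held 14 and 23 with 10 of its 37 summits inside ZFPM2, and PVT1, beside the oncogene MYC, held 18 and 18.

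**Figure D4:**
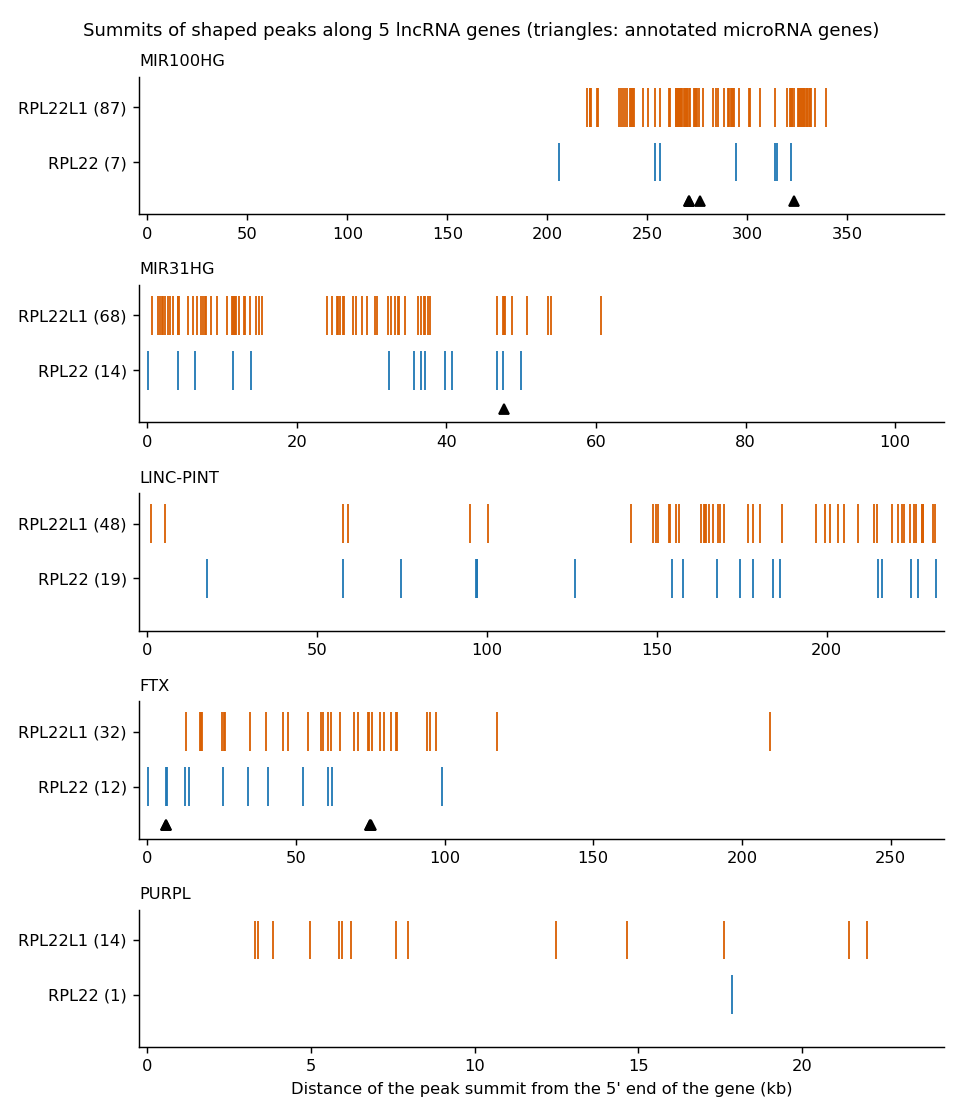
Summits of members along MIR100HG, MIR31HG, LINC-PINT, FTX and PURPL, in kb from the 5′ end of the gene, with RPL22L1 summits above, RPL22 summits below and triangles at annotated microRNA genes. Each line is 1 summit; the 87 RPL22L1 summits of MIR100HG lie between 219.9 and 339.2 kb, and those of MIR31HG begin near the 5′ end.

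After MIR100HG, the largest ratios among genes with at least 5 members were found in genes with 0 or 1 RPL22 members. LINC02458, on chr12:89011126-89019692, held 0 RPL22 and 9 RPL22L1 members with scores from 34 to 940, a log2 ratio of 3.32. PURPL, which is induced by p53 and lowers p53 levels, held 1 RPL22 member, with a score of 28, and 14 RPL22L1 members with scores from 38 to 605, a ratio of 2.91. LOC102723704 held 0 and 8 with scores from 102 to 2541 (ratio 3.17), all inside the ubiquitin-conjugating enzyme gene UBE2D3, and DSG2-AS1 held 0 and 5 (2.58), all inside the desmosome gene DSG2. In both of the latter genes the lncRNA cannot be told apart from the protein-coding gene.

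Towards RPL22 the numbers were smaller. LOC105376956 held 9 RPL22 and 0 RPL22L1 members with scores from 33 to 212, a log2 ratio of -3.32, all of them inside IQSEC1. LINC02641, in no protein-coding gene, held 6 and 0 with scores from 33 to 87, a ratio of -2.81. ABHD16B-AS1, LOC124904000 and SAP30L-AS1 each held 5 and 0, a ratio of -2.58. When flat peaks were kept, the RPL22L1 list had peaks in all 5 genes, and SAP30L-AS1 turned to 16 and 20, a ratio of 0.30. LOC105376956 then held 18 and 7 (-1.25), and MIR100HG 25 and 191 (2.88). Among peaks at or above the median score, LOC105376956 held 3 and 0, LINC02641, ABHD16B-AS1 and SAP30L-AS1 held 1 and 0 each, and LOC124904000 held 0 and 0, so none of the 5 genes lowest in ratio reached 5 peaks there. Of the 5 genes with the highest ratios, LINC02458 and LOC102723704 then held 0 and 4, DSG2-AS1 0 and 1, PURPL 0 and 6, and MIR100HG 0 and 30.

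A list of 50 well-known lncRNAs in 5 groups was read beside these genes. It was chosen with earlier results of these data known, and 48 of its names were of type lncRNA in the gene table, TUG1 being listed there as protein-coding and TP53COR1 not found. Of the 48 genes 29 held a member, 25 in each list and 21 in both, with 127 RPL22 and 349 RPL22L1 members. Of the 17 with at least 5 members 9 had a log2 ratio above 1 and 1 below -1, with a median of 1.29. Over all 333 lncRNA genes 21.0% lay above 1 and 12.3% below -1, with a median of 0.19. Over all 6444 genes the shares were 13.1% and 15.3%. Because the list was chosen in this way, its numbers describe the listed genes only and not well-known lncRNAs in general. The list holds MIR100HG, MIR31HG and LINC-PINT, the 3 lncRNA genes with the most members of all.

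Cytoplasmic lncRNAs, which can meet ribosomes, had 9 RPL22 and 18 RPL22L1 members in 5 of 8 listed genes. NORAD, an abundant decoy of PUMILIO proteins, held 2 RPL22 members with scores of 188 and 196 and 8 RPL22L1 members with scores from 23 to 923. Both RPL22 peaks overlapped an RPL22L1 peak, and the site at chr20:36049043-36049086 scored 196 and, as chr20:36049043-36049081, 923. ZFAS1, a host of snoRNAs, held 2 and 3 members, and both RPL22 peaks were again shared, one of them at chr20:49287472-49287513 with 105 and at chr20:49287468-49287517 with 420. OIP5-AS1 held 4 and 4, with 1 shared in each list, and DANCR 0 and 2.

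Nuclear or chromatin-linked lncRNAs had 49 RPL22 and 102 RPL22L1 members in 7 of 12 listed genes. CHASERR, which lies before CHD2 and lowers its expression, held 2 RPL22 members with scores of 68 and 223 and 12 RPL22L1 members with scores from 32 to 995, a log2 ratio of 2.12. Neither RPL22 member overlapped an RPL22L1 peak, and none of the 12 RPL22L1 members overlapped an RPL22 peak, beside the 31.7% and 19.9% of all members that did. JPX held 7 and 6 members and FIRRE 4 and 3. CDKN2B-AS1, antisense at the INK4 locus, held 4 and 1, the one gene of the list with at least 5 members and a ratio below -1 (-1.32). That call was lost when every summit within the gene was counted, at 6 and 3 (-0.81), and when flat peaks were kept, at 21 and 22 (0.06).

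The cancer-linked genes had 33 RPL22 and 41 RPL22L1 members in 10 of 15 listed genes, without a common direction. CCAT1, transcribed in colon cancer near the MYC locus, held 2 and 7 members, and both RPL22 peaks, with scores of 94 and 295, overlapped RPL22L1 peaks, with scores of 283 and 446. CRNDE held 1 and 5 and shared its RPL22 peak. LUCAT1 held 3 RPL22 members with scores of 72, 102 and 238 and 0 RPL22L1 members. DLEU1 held 4 and 5. In the group listed as p53-linked, which does not include LINC-PINT, PURPL was the 1 of 5 genes with members, and the group of microRNA hosts held 35 and 174 members in 6 of 10.

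Start sites could be examined where a peak lay wholly within a RefSeq promoter window, from 250 bases before to 50 bases after an annotated gene start. Such peaks numbered 64 of the RPL22 members (2.06%, 1.59 to 2.63%) and 24 of the RPL22L1 members (0.753%, 0.483 to 1.12%). Over all shaped peaks the shares were 1.07% (0.986 to 1.16%) and 0.472% (0.417 to 0.532%), so a lower share for RPL22L1 was seen across the whole list and not in the members alone. Since a wide peak is less likely to lie wholly in a window, summits were counted too, and 2.71% and 1.13% of the member summits lay in a window beside 1.46% and 0.619% of all shaped summits. Of the 64 and 24 peaks wholly in a window, 29 and 7 lay in that of the lncRNA gene itself. A window of a protein-coding gene held 28 and 9 of them. Overlap with the other list was found for 16 of the 64 RPL22 peaks (25%) and for 11 of the 24 RPL22L1 peaks (45.8%). Over all members the shares were 31.7% and 19.9%, so the difference from all members had opposite directions in the lists. The counts are small and have no replicate. In LOC112268140 both lists held a member just after the start, at chr14:63542782-63542820 with a score of 120 and at chr14:63542777-63542811 with a score of 507. The RPL22 peak, with its summit 15 bases after the start, is printed on the plus strand with the 30 bases shared with the RPL22L1 peak in capitals.
LOC112268140, RPL22 list: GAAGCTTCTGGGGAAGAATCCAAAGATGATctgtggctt
DLEU2 held a site in the window of its divergent neighbour DLEU1, with a score of 46 for RPL22 and 544 for RPL22L1. All 30 bases of the RPL22 peak lay inside the RPL22L1 peak of 50 bases. The RPL22L1 peak is printed on the plus strand, which is the strand of DLEU1, with the shared bases in capitals. DLEU2 lies on the minus strand, so its RNA would be the reverse complement.
DLEU2, RPL22L1 list: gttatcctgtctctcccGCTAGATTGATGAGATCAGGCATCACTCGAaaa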

How the data were processed

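RNA bound to RPL22-HaloTag and RPL22L1-HaloTag was sequenced from HCT116 cells, 1 library each. The deposited lists give position, a score per peak in whole numbers from 13, and the other value used, the summit offset in bases, with no strand and with the signal, p and q columns at 0. The submitters' processing notes name cutadapt 4.8, STAR 2.7.10a, UMI-tools 1.1.5, MACS3 3.0.0a6 and hg38; roles, settings and the control are not given in the sources used here. Each library has its own list, and read numbers are unknown.

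Each summit was given to the shortest RefSeq gene (GRCh38.p14) holding it; exons were not used. Overlap meant at least 1 shared base. Shares carry exact Clopper-Pearson 95% intervals. With 1 library per group no test was run, and values describe these libraries. Small RNA genes were genes of at most 500 bases of the types tRNA, microRNA, snRNA, snoRNA, vault RNA, Y RNA, scRNA and rRNA. The types RNase MRP RNA, RNase P RNA, telomerase RNA, misc_RNA and ncRNA were also taken, with the same limit. Named genes were, per list, the 8 with the highest-scoring members, the 8 with most members, the 5 extreme ratios each way (at least 5 members), the 8 best-ranked pairs, the 5 widest peaks and known lncRNAs. Members and lists were chosen with earlier results of these data known. Python 3.11.15, pandas 2.3.3 and scipy 1.17.1 were used. As a check of the code only, slightly shifted copies of 20.1% of RPL22 shaped peaks were planted, and 20.1% were recovered as overlapping. All other copies were taken off the chromosomes, so chance overlap was not part of this check. Of 300 real summits of RPL22 shaped peaks, 0 got another gene in a direct search. Alternatives were the score limit, flat peaks, overlap, distance, gene number limits and leaving out nested summits.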

Additional observations from a re-analysis of the deposited data

How the results depend on the processing

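No paired analysis was possible because each group had 1 library, and leaving out a replicate was not possible either. Of 60 alternative values of the main results 7 moved by less than counting error and 53 moved; the cause was not tested. A further 400 values were peak numbers of named genes and shares of the naming classes other than microRNA hosts. Of these, 236 stayed and 164 moved. With only peaks at or above the median score (medians of 126 and 359 among the members), the share of members was 5.06% and 5.38% in the RPL22 and RPL22L1 lists, the share also in a protein-coding gene 61.9% in the RPL22 list, overlap 44.3% and 28.6%, nearness to a small RNA gene 1.31% and 1.78%, microRNA hosts 5.15% and divergent genes 6.07% in the RPL22L1 list, genes 880 and 849 with 412 in both, and ratio calls 24 towards RPL22L1 and 8 towards RPL22 of 126 genes (19.05% and 6.35%, over all genes 12.0% and 9.97%). With flat peaks kept, the same values were 8.58% and 8.04%, in protein-coding genes 44.4% and 42.0%, overlap 10.7% and 6.95%, small RNA 0.235% and 0.220%, microRNA hosts 3.46% (RPL22L1), LINC 10.5% and 10.1%, LOC 52.4% and 50.6%, antisense 23.0% and 23.0%, genes 4931 and 5319 with 3212 in both, and calls 498 and 76 of 1698 (29.3% and 4.48%, over all genes 28.9% and 4.31%, with lists of 154000 and 254413 peaks). With summits in no gene of another type they were 2.32% and 2.78%, overlap 29.5% and 15.9%, small RNA 1.51% and 1.79%, genes 737 and 673 with 311 in both, and calls 30 and 10 of 106. When at least 50% of each peak had to be shared, 18.5% and 12.2% overlapped, and with shaped partners only 18.8% and 18.2%. Under these 2 rules and with flat peaks kept, overlap was computed for members only. Whether the gap to protein-coding genes holds there is therefore not known. The numbers of genes in both lists and the nearness to a small RNA gene were also computed for members only. A distance of 1000 bases gave 1.39% and 2.51%. Genes with at least 3 members numbered 323 and 294, with 159 in both, and at least 10 members left 31 and 5 calls of 108 (28.7% and 4.63%, over all genes 15.2% and 7.53%). Without MIR100HG and MIR31HG, chosen after seeing the data, microRNA hosts held 1.43% and 2.04%. Ratio calls were not recomputed under the other settings, apart from lists of equal length, with 63 and 43 of 325. For lists of equal length and for summits in no gene of another type, calls over all genes were not computed. Those counts of calls therefore have no background and do not bear on an excess over all genes. The unknown depth limits every comparison of peak numbers.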

Other observations

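The 5 widest members of each list lay in different genes, but several of these sites also had a peak of the other list. Of the RPL22 peaks named here, those in LNCROPM, KPNB1-DT and MIR23AHG overlapped an RPL22L1 peak, and those in LOC107984915 and LOC124900232 did not. Of the RPL22L1 peaks, those in MYL12-AS1, MIR31HG and MIR222HG overlapped an RPL22 peak, and those in CHROMR and LOC124905356 did not. In the RPL22 list the widest, of 213 bases, lay in LNCROPM within the gene ATL3 with a score of 74, followed by LOC107984915 (188 bases), KPNB1-DT (174 bases), LOC124900232 (165 bases) and MIR23AHG (158 bases). In the RPL22L1 list the widest, of 272 bases and score 516, lay in MYL12-AS1 within the myosin light chain gene MYL12A. Then came MIR31HG (236 bases, score 432), CHROMR (227 bases, score 764), MIR222HG (217 bases, score 549) and LOC124905356 within SUN1 (217 bases, score 287). The broad MIR222HG peak at chrX:45746240-45746456 reached into MIR221 and overlapped a narrower RPL22 peak of score 64.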
